A study of Mus musculus with 16 samples.

Results

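Expression of BDC2.5/NOD thymocytes that had received no peptide was compared with that of wild-type NOD thymocytes. The comparison took the 3 arrays titled N.pep0h1, N.pep0h2 and N.pep0h3 against the 2 arrays titled NOD1 and NOD2, which is 5 of the 16 arrays of the study. All RNA was total RNA of CD4+CD8+ (double-positive) mouse thymocytes from fetal thymic organ culture (lobes of the fetal thymus cultured whole), and was read on Affymetrix arrays with 1 intensity per probe set. The other arrays of the study were 3 of BDC2.5/NOD cells at 16 h of peptide, 3 of BDC2.5/B6g7 cells at 16 h of peptide, 3 of BDC2.5/B6g7 cells without peptide and 2 of wild-type B6g7 cells. The BDC2.5 transgenes encode an already rearranged T cell receptor (TCR), taken from a CD4 clone that transfers diabetes. NOD is an inbred strain that develops autoimmune diabetes, and B6g7 is a C57BL/6 strain congenic for the NOD MHC. The peptide and its dose are not named in the labels, which also give no age, sex or pooling of the fetuses, and do not say whether peptide had been added to the wild-type cultures. They also do not say that replicates came from separate animals or cultures, so how far the p-values measure spread between animals is not known. Sex-linked transcripts, given below, differed between arrays of the same group.

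A double-positive thymocyte has normally rearranged its TCR β locus first, and then rearranges its TCR α locus while it expresses both coreceptors. A β chain that is already rearranged, as in a TCR transgenic mouse, is known to halt rearrangement of the endogenous β genes (allelic exclusion), whereas endogenous α genes are held back less strictly. The pre-TCR pairs a β chain with pre-TCR α, the product of Ptcra, and Notch signals drive Ptcra transcription at the preceding double-negative stage. Engagement of the mature receptor by self peptide and MHC induces Egr1, Nr4a1 and Cd5 and leads to positive or negative selection.

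The promoters of the 1 gene that rose (Asf1b) and of the pre-TCR gene (Ptcra) are shown because Asf1b is the only called rise and Ptcra, which had no call, is the gene of the pre-TCR described above. They are the RefSeq sequences on build GRCm38.p6, from 250 bases before to 50 bases after the gene start, at chr8:83955444-83955743 on the plus strand for Asf1b and at chr17:46763663-46763962 on the minus strand for Ptcra. Asf1b encodes a histone chaperone that hands H3 and H4 to newly replicated DNA. Capitals in the Asf1b sequence mark the CCAAT box, searched as CCAAT on both strands, and TTTGAA, the core of the cell cycle homology region element, also searched on both strands. Capitals in the Ptcra sequence mark CANNTG, the E box bound by E proteins, which reads the same on both strands. No motif overlaps another here.
Asf1b: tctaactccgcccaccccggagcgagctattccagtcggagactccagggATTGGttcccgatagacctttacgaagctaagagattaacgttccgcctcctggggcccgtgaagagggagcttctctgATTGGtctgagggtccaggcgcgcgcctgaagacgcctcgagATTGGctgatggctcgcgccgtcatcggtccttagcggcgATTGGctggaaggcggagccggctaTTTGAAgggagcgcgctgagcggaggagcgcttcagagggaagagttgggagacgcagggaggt
Ptcra: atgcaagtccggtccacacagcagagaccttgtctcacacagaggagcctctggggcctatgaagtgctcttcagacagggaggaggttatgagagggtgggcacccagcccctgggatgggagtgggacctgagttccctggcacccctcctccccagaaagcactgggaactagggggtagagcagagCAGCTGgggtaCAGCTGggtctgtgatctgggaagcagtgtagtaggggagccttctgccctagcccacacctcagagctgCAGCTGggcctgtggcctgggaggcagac

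The Asf1b window held 4 CCAAT matches, all on the opposite strand and so printed as ATTGG, and 1 TTTGAA match. Of 32851 RefSeq promoters of the same length, 37.4% held CCAAT at least once and 1.06% at least 4 times, and 17.9% held TTTGAA. The Ptcra window held 3 CANNTG matches, all of them CAGCTG. At least 1 CANNTG was found in 72.3% of the promoters and at least 3 in 17.6%. These matches are letters in a window and not measured binding.

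Array quality was uneven within the groups. The log2 difference between the 3′ and the 5′ probe set of β-actin, a control for RNA integrity and labelling, was lowest in N.pep0h3 (1.86) among the BDC2.5/NOD arrays and in NOD2 (1.86) among the wild-type NOD arrays. It was 3.27 in N.pep0h1, 2.33 in N.pep0h2 and 3.08 in NOD1. A higher value means less signal of the 5′ probe set relative to the 3′ probe set. By this control, the arrays of low difference are thus not the poorer ones. Over the study, the 6 arrays with the lowest value of their group lay between 1.36 and 1.96, and they took all the highest scores (6.73 to 37.7, against -26.4 to 3.14) on a first principal component that carried 57.9% of variance among the 3000 probe sets that varied most. Such arrays were 1 of 3 BDC2.5/NOD arrays and 1 of 2 wild-type NOD arrays, so the classes were unevenly spread over the groups. Median intensity lay between 54.7 and 59.1 on all arrays. Across all 12422 probe sets the median transgene difference was 0.04 on the log2 scale and 61% of probe sets were higher in BDC2.5/NOD cells.

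The labelled cell type was checked by 11 measured double-positive markers, and both groups carried them. In BDC2.5/NOD cells 5 were higher and 6 lower, and none was called. Cd8a, a coreceptor chain, had intensities of 2117, 2764 and 4093 on the BDC2.5/NOD arrays and 2416 and 4257 on the wild-type NOD arrays. Cd4, the other coreceptor, had 232, 258 and 305 in BDC2.5/NOD cells and 262 and 293 in wild-type NOD cells. Cd3e, a chain of the signalling complex of the TCR, had 264, 269 and 269 in BDC2.5/NOD cells and 271 and 254 in wild-type NOD cells. The groups overlapped for all 3 genes, with log2 differences (BDC2.5/NOD minus wild-type NOD, ± SE of the fit) of -0.15 ± 0.39, -0.07 ± 0.20 and 0.03 ± 0.17. Of the other markers, Ptcra (-0.94) and Dntt (-0.56), described below, and Cd3g (0.32 ± 0.25) separated the groups without overlap. Over all 12422 probe sets, 6.19% were higher and 2.52% lower in BDC2.5/NOD cells without overlap. Il2ra, a marker of the earlier double-negative stage, was at 20.2, 19.0 and 19.4 in BDC2.5/NOD cells and 20.1 and 22.8 in wild-type NOD cells.

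A small set of probe sets was called between the transgenic and the wild-type NOD cells, and most of those with a gene name are annotated to TCR β variable segments. limma called 7 of 12422 probe sets (0.0564%) at a Benjamini-Hochberg adjusted p under 0.05, of which 1 (0.00805%) was higher and 6 (0.0483%) were lower in BDC2.5/NOD cells. Without adjustment, 248 probe sets (2%) had a p under 0.05. The endogenous Vβ segments Trbv13-2 (both probe sets) and Trbv1 (the dimmer of its probe sets) fell, as did 3 probe sets that the platform annotation assigns to no gene. Asf1b was the 1 that rose. All 7 separated the 3 BDC2.5/NOD arrays from the 2 wild-type NOD arrays without overlap, as did 769 probe sets (6.19%) higher and 313 (2.52%) lower in BDC2.5/NOD cells over the whole array.

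**Figure D1:**
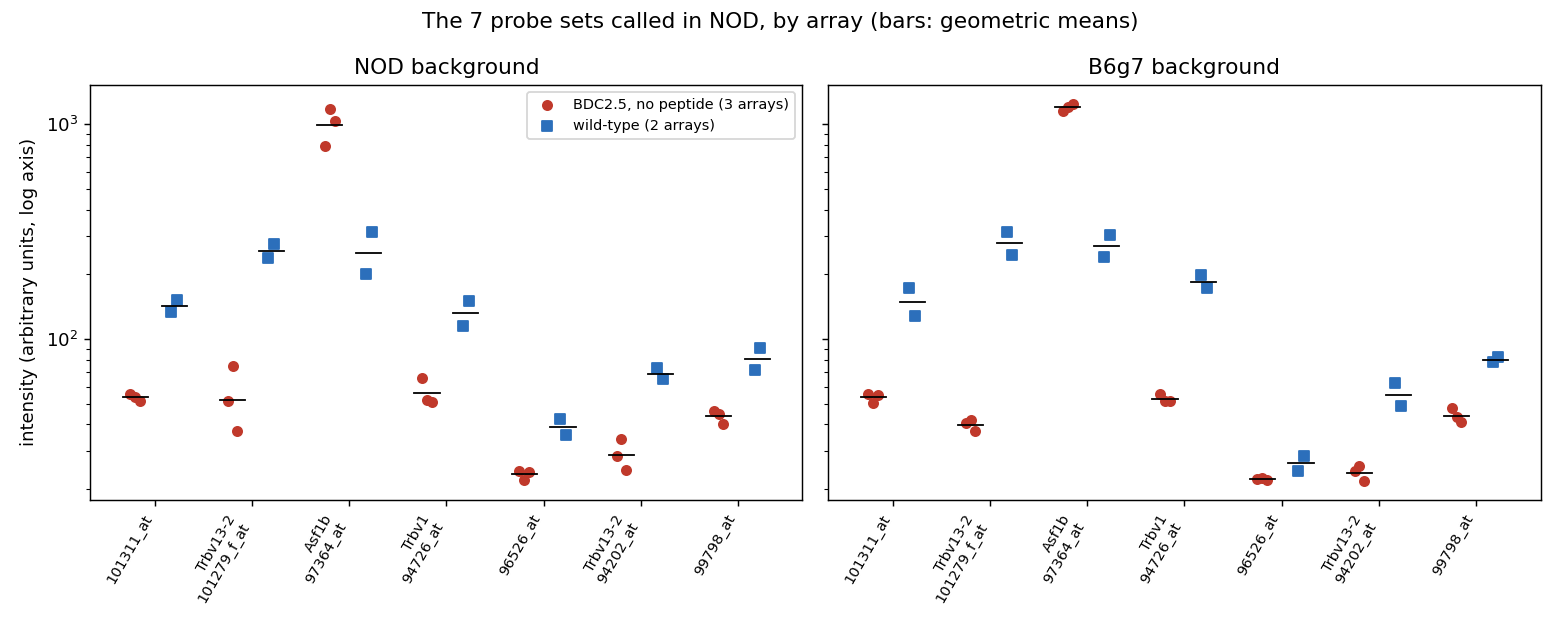
Intensity (log axis) of the 7 probe sets called in NOD, with 1 panel for the NOD and 1 for the B6g7 background. In each panel BDC2.5 arrays without peptide lie left of wild-type arrays, and each point is 1 array. Asf1b lies at 787 to 1175 in BDC2.5/NOD cells against 201 and 314 in wild-type NOD cells, and the other 6 probe sets lie lower in BDC2.5/NOD cells.

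**Figure D2:**
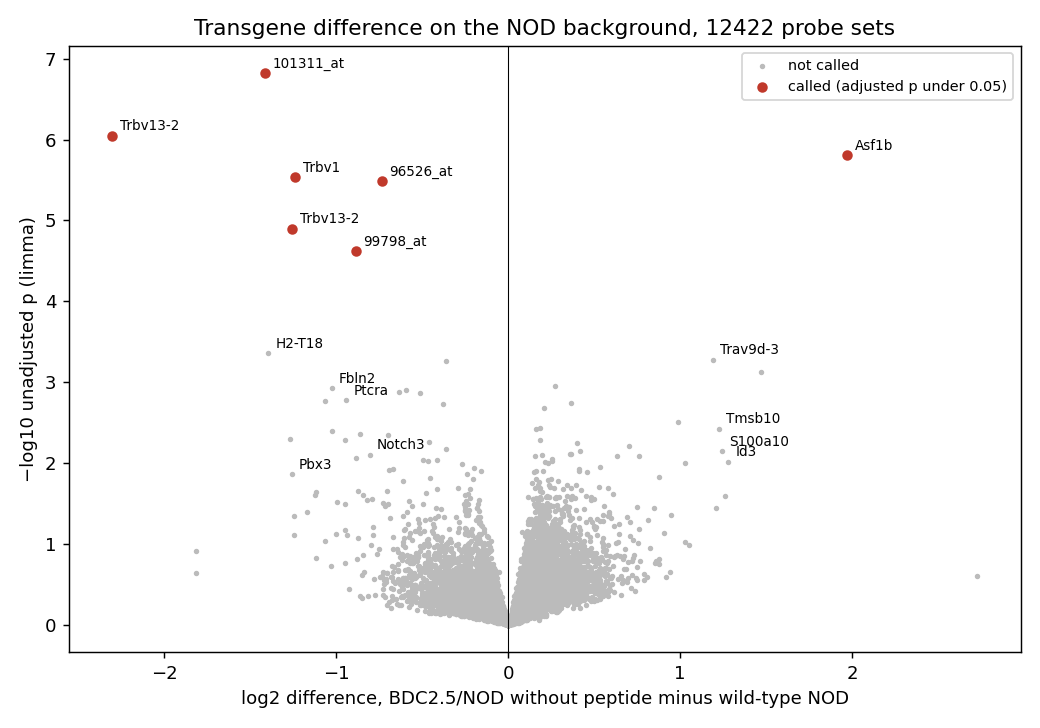
Log2 difference (BDC2.5/NOD minus wild-type NOD, x axis) against minus log10 of the unadjusted limma p (y axis) for all 12422 probe sets. The 7 called probe sets are marked, 1 on the right and 6 on the left, and some uncalled genes of the text are labelled.

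Trbv13-2 showed the largest difference of the 7. Its brighter probe set (101279_f_at, whose suffix marks probes shared within a gene family) had intensities of 51.3, 74.7 and 37.2 on the BDC2.5/NOD arrays and 238.5 and 277.7 on the wild-type NOD arrays. Every BDC2.5/NOD array was thus far below both wild-type NOD arrays, 4.93-fold lower on average (log2 -2.30 ± 0.27, limma adjusted p = 0.00557). The call was lost without NOD1 (adjusted p = 0.0511) or without NOD2 (0.0819), with log2 differences of -2.41 and -2.19. The second Trbv13-2 probe set (94202_at) had 28.6, 34.3 and 24.6 in BDC2.5/NOD cells and 72.9 and 65.2 in wild-type NOD cells. It fell by 1.25 ± 0.19 on the log2 scale (limma adjusted p = 0.0263), and among the 5 fits that left out 1 array it passed only without N.pep0h2. After 16 h of peptide the 3 BDC2.5/NOD arrays read 62.3, 58.0 and 41.4 on the brighter probe set, in the range of the cells without peptide.

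The probe sets of Trbv1 went in opposite directions. The dimmer one (94726_at) had 65.4, 52.1 and 50.9 in BDC2.5/NOD cells and 115 and 150 in wild-type NOD cells, a 2.36-fold fall without overlap (log2 -1.24 ± 0.16, limma adjusted p = 0.00814). Its adjusted p was 0.0509 without N.pep0h2, 0.0518 without N.pep0h3 and 0.202 without NOD2. The brighter one (93105_s_at, a suffix for probes that can read several transcripts) was among the brightest signals of the array, at 12450, 11440 and 12680 in BDC2.5/NOD cells and 8569 and 9802 in wild-type NOD cells. These arrays did not overlap either, but were higher in BDC2.5/NOD cells, and the difference of 0.41 ± 0.14 had no call (limma adjusted p = 0.999). Which transcripts each probe set reads was not resolved here.

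Of the TCR α segments, Trav9d-3 was higher in BDC2.5/NOD cells by value. The suffix of its brightest probe set (97944_f_at) marks probes shared within a gene family, and which α segments it reads was not resolved here. This probe set had 2445, 3959 and 4038 in BDC2.5/NOD cells and 1404 and 1578 in wild-type NOD cells. The groups did not overlap, and the difference of 1.19 ± 0.26 missed the threshold (limma adjusted p = 0.677) unless array class was a term, when it was 1.24 with an adjusted p of 0.0371. That fit called 8 probe sets (0.0644%), the same 7 and this one. A second Trav9d-3 probe set (97945_at) had 1735, 3197 and 3406 in BDC2.5/NOD cells and 1378 and 1241 in wild-type NOD cells (log2 1.03 ± 0.34), and the third (93224_at), at 43.0 to 51.2 on the 5 arrays, gave -0.11.

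None of the remaining TCR segments on the array was called. Trgv4, a γ-chain segment, had 36.6, 38.1 and 24.3 in BDC2.5/NOD cells and 46.4 and 59.7 in wild-type NOD cells, with no overlap (log2 -0.70 ± 0.21, limma adjusted p = 0.999), and it gave -0.31 without the 6 arrays of low β-actin difference. Trgv1 gave -0.16, Trav19 0.11, Trav6-2 0.15 and Trav12n-1 -0.11, each with overlapping groups. A lower signal of a segment in bulk RNA can be fewer cells that use it or less RNA per cell, which cannot be told apart.

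**Figure D3:**
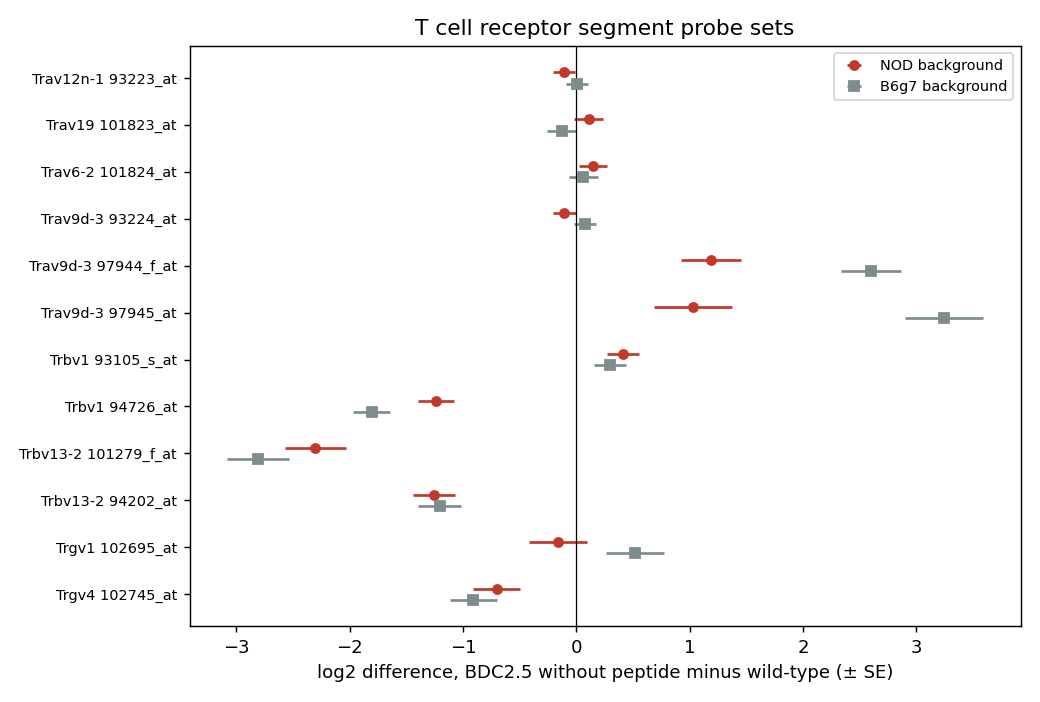
Log2 difference with SE for each TCR segment probe set on the array, on the NOD background (BDC2.5/NOD minus wild-type NOD) and on the B6g7 background (BDC2.5/B6g7 minus wild-type B6g7). On the NOD background, both Trbv13-2 probe sets and the dimmer Trbv1 probe set lie at -1.24 or lower, and 2 Trav9d-3 probe sets lie above 1.

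Asf1b (97364_at) had intensities of 787, 1175 and 1034 on the BDC2.5/NOD arrays and 201 and 314 on the wild-type NOD arrays. The lowest BDC2.5/NOD array was more than 2-fold above the highest wild-type NOD array, and the mean was 3.92-fold higher (log2 1.97 ± 0.25, limma adjusted p = 0.00645). Without NOD1, the dimmer of the wild-type NOD arrays, the difference was 1.65 and the call was lost (adjusted p = 0.163). At 16 h of peptide the BDC2.5/NOD arrays read 1097, 860 and 1107, the level of the cells without peptide. Of the genes of DNA replication, the process in which Asf1b acts, 21 of 37 were higher in BDC2.5/NOD cells, with a median log2 difference of 0.02. limma called 0 of the 37, with 0 at an unadjusted p under 0.05. Of 40 cell cycle genes, 15 were higher and the median was -0.08 (0.06 without the 6 arrays of low β-actin difference).

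The annotation gives no gene for 3 of the called probe sets. Probe set 101311_at had the smallest p of the comparison, with 55.5, 53.5 and 51.5 in BDC2.5/NOD cells and 133 and 152 in wild-type NOD cells (log2 -1.41 ± 0.14, limma adjusted p = 0.00189). It was the 1 of the 7 that kept its call in each of the 5 fits that left out 1 array. Probe set 99798_at had 46.0, 44.9 and 40.3 in BDC2.5/NOD cells and 71.9 and 90.6 in wild-type NOD cells (log2 -0.89 ± 0.14, limma adjusted p = 0.0423), and it lost its call in all 5 of those fits (adjusted p between 0.106 and 1). Probe set 96526_at had 24.24, 22.03 and 24.01 in BDC2.5/NOD cells and 42.51 and 35.72 in wild-type NOD cells (log2 -0.74 ± 0.10, limma adjusted p = 0.00814). It lost its call without N.pep0h2 (0.0509), without NOD1 (0.254) and when intensities below 32 were set to 32 (-0.28, adjusted p = 0.183).

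The pre-TCR gene and the Notch genes had no call. Ptcra had 184, 204 and 173 in BDC2.5/NOD cells and 400 and 319 in wild-type NOD cells. The groups did not overlap, and the difference of -0.94 ± 0.24 had a limma adjusted p of 0.999. Notch3, a Notch receptor of immature thymocytes, had 156, 223 and 197 in BDC2.5/NOD cells and 413 and 266 in wild-type NOD cells (log2 -0.81 ± 0.26), also without overlap. Notch1 gave -0.57 ± 0.46 and the Notch target Dtx1 -0.94 ± 0.49, both with overlapping groups. Hes1, another Notch target, which was named after its value was seen, gave 0.01 ± 0.21. Without the 6 arrays of low β-actin difference, which leaves NOD1 as the only wild-type NOD array, Ptcra gave -1.05, Notch3 -1.15 and Dtx1 -1.42. Without NOD1 and with all other arrays, Ptcra gave -0.78, Notch3 -0.49, Notch1 -0.14 and Dtx1 -0.35.

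Of 11 recombination and end-joining genes, 5 were higher in BDC2.5/NOD cells and 6 lower, with a median of -0.06 that turned to 0.02 with array class as a term. limma called 0 of them, and 0 had an unadjusted p under 0.05. Rag1, a subunit of the recombinase, had 801, 1217 and 3337 in BDC2.5/NOD cells and 1831 and 4467 in wild-type NOD cells (log2 -0.95 ± 0.66). The highest value of each group came from its array of low β-actin difference, and with array class as a term the difference was -0.77. It was -1.53 without N.pep0h3, -0.50 without N.pep0h1, -1.59 without NOD1 and -0.31 without NOD2, and a dimmer Rag1 probe set gave -0.02. Rag2, the other subunit, gave -0.79 ± 0.41 with overlapping groups. Dntt, the terminal transferase that adds bases at the joints, had 2896, 2680 and 3459 in BDC2.5/NOD cells and 4208 and 4624 in wild-type NOD cells, which did not overlap (log2 -0.56 ± 0.30), and its 2 dimmer probe sets gave -0.95 and -0.73. Xrcc6 (Ku70), an end-joining protein gene, gave -0.62 ± 0.39 without overlap.

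Genes that a TCR signal induces had no call, and as a list they were not higher more often than all genes. Those named in this paragraph were higher by their brightest probe set. Egr1, an immediate-early transcription factor, had 345, 415 and 491 in BDC2.5/NOD cells and 151 and 303 in wild-type NOD cells. The groups did not overlap (log2 0.95 ± 0.43, limma adjusted p = 0.999), and a dimmer Egr1 probe set gave -0.05. Id3, an inhibitor of E proteins downstream of Egr1, had 597, 650 and 278 in BDC2.5/NOD cells and 291 and 132 in wild-type NOD cells (log2 1.28 ± 0.43), with the array of low β-actin difference the lowest of each group. Egr2 gave 0.20 ± 0.55, Nr4a1 (Nur77) 0.22 ± 0.39 and Cd5, a surface gauge of TCR signal strength, 0.53 ± 0.52, all with overlapping groups. Of 25 measured early genes, 15 were higher, which is 60% against 60.9% of all 8251 genes by their brightest probe set, and their median was 0.04, beside 0.04 over all genes.

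Genes of later maturation and survival had no call either. Ccr7, a chemokine receptor of mature thymocytes, gave 0.19 ± 0.22 on intensities of 15.7 to 20.5, Il7r -0.05 ± 0.33 and Itm2a -0.43 ± 0.34 (-0.03 without the 6 arrays of low β-actin difference). Gimap4, a GTPase gene of maturing thymocytes, had 333, 338 and 376 in BDC2.5/NOD cells and 196 and 254 in wild-type NOD cells, without overlap (log2 0.65 ± 0.34). Bcl2 gave -0.04 ± 0.20 by its brightest probe set and 0.22 and 0.09 by the others. Bcl2l11 (Bim), a death gene of negative selection, gave -0.23 ± 0.29, with 0.31 by a dimmer probe set. Gadd45b gave 0.13 ± 0.32 and the inhibitory receptor gene Pdcd1 0.07 ± 0.42.

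Beyond these genes, the probe sets with the smallest p among those with no overlap and enough signal were all at adjusted p = 0.677 or above. Among those lower in BDC2.5/NOD cells, the class I-like gene H2-T18 had 1410, 1503 and 1708 in BDC2.5/NOD cells and 4184 and 3898 in wild-type NOD cells (98284_f_at, log2 -1.40 ± 0.30, limma adjusted p = 0.677). Each wild-type NOD array was more than 2-fold above every BDC2.5/NOD array. Probe sets that the annotation assigns to several H2-T genes, looked at after the value of H2-T18 was seen, were lower too: those of H2-T3 and H2-T18 gave -1.27 and -1.17, those of H2-T9, H2-T10 and H2-T22 gave -1.06 and -1.02, and one shared by many class I genes gave -0.79. Whether these probe sets read the same transcripts was not tested. H2-T24 gave -0.12 and a probe set of H2-T23 0.30.

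Other genes lower in BDC2.5/NOD cells by the same rule were Pbx3, a homeobox gene (-1.26), Fbln2, an extracellular matrix gene (-1.03, or -0.67 without NOD1), Foxb1 (-0.95), Ctage5 (-0.88), Ahr, the aryl hydrocarbon receptor (-0.86), Cnot8, a deadenylase subunit (-0.69), Desi1 (-0.67), Sh3gl3 (-0.63), Laptm4b (-0.49), Dsg2, a desmosomal cadherin (-0.46, with 0.12 by a dimmer probe set) and Gm3716 (-0.46). Ahr had 25.7, 42.2 and 40.3 in BDC2.5/NOD cells and 59.1 and 69.6 in wild-type NOD cells. Higher by the rule were S100a10, a calcium-binding-family protein gene (1.24, with 0.12 by a dimmer probe set), Tmsb10, an actin-sequestering peptide gene (1.23), Crybg1 (0.99), Shisa5 (0.87), Lysmd2 (0.76), Vcan, a matrix proteoglycan gene (0.63), Cd48, an adhesion receptor gene (0.61), Akr1c13 (0.54), Mmp14 (0.53), Abt1 (0.45), Klk1b8 (0.42) and Msrb1 (0.39). Tmsb10 had 304, 279 and 128 in BDC2.5/NOD cells and 95.0 and 94.2 in wild-type NOD cells, and S100a10 had 943, 664 and 354 in BDC2.5/NOD cells and 304 and 216 in wild-type NOD cells. For both genes the BDC2.5/NOD array nearest to the wild-type NOD arrays was N.pep0h3, the array of low β-actin difference. All these genes had a limma adjusted p of 0.999.

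The gene groups gave small shifts. limma called 0 members in each of 20 pathway lists and 7 marker lists, and no list held more than 2 members with an unadjusted p under 0.05. Over all 8251 genes by their brightest probe set, 60.9% were higher. Members of the TCR complex and proximal signalling were higher in 23 of 28 cases, with a median log2 difference of 0.11. Ptcra was the 1 member with an unadjusted p under 0.05, and it was lower. Oxidative phosphorylation genes were higher in 28 of 37 cases (median 0.13), with Ndufb7 at 0.75 ± 0.54. Between arrays of a group, the median log2 intensity of these lists had a pooled standard deviation of 0.091 and 0.722. Genes of double-positive thymocytes were higher in 7 of 21 (median -0.07), p53 and its targets in 2 of 12 (median -0.19, with Cdkn1a at -0.57 ± 0.31, or -0.14 without NOD1) and glycolysis genes in 7 of 19 (median -0.18, with Ldhb at -0.46 ± 0.28). Chaperones were higher in 10 of 34 (median -0.11, or 0.01 without the 6 arrays of low β-actin difference, with Xbp1 at -0.69 ± 0.32). Interferon-response genes were higher in 8 of 32 (median -0.13), but the median turned to 0.15 without the 6 arrays of low β-actin difference. One interferon-inducible gene with little spread was Ly6e, with 2989, 3660 and 3523 in BDC2.5/NOD cells and 4386 and 4593 in wild-type NOD cells (log2 -0.41 ± 0.19). Pro-apoptotic genes were higher in 9 of 20 (median -0.01), anti-apoptotic genes in 6 of 17 (median -0.04) and NF-kB pathway genes in 13 of 18 (median 0.06), beside a median of 0.04 over all genes.

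**Figure D4:**
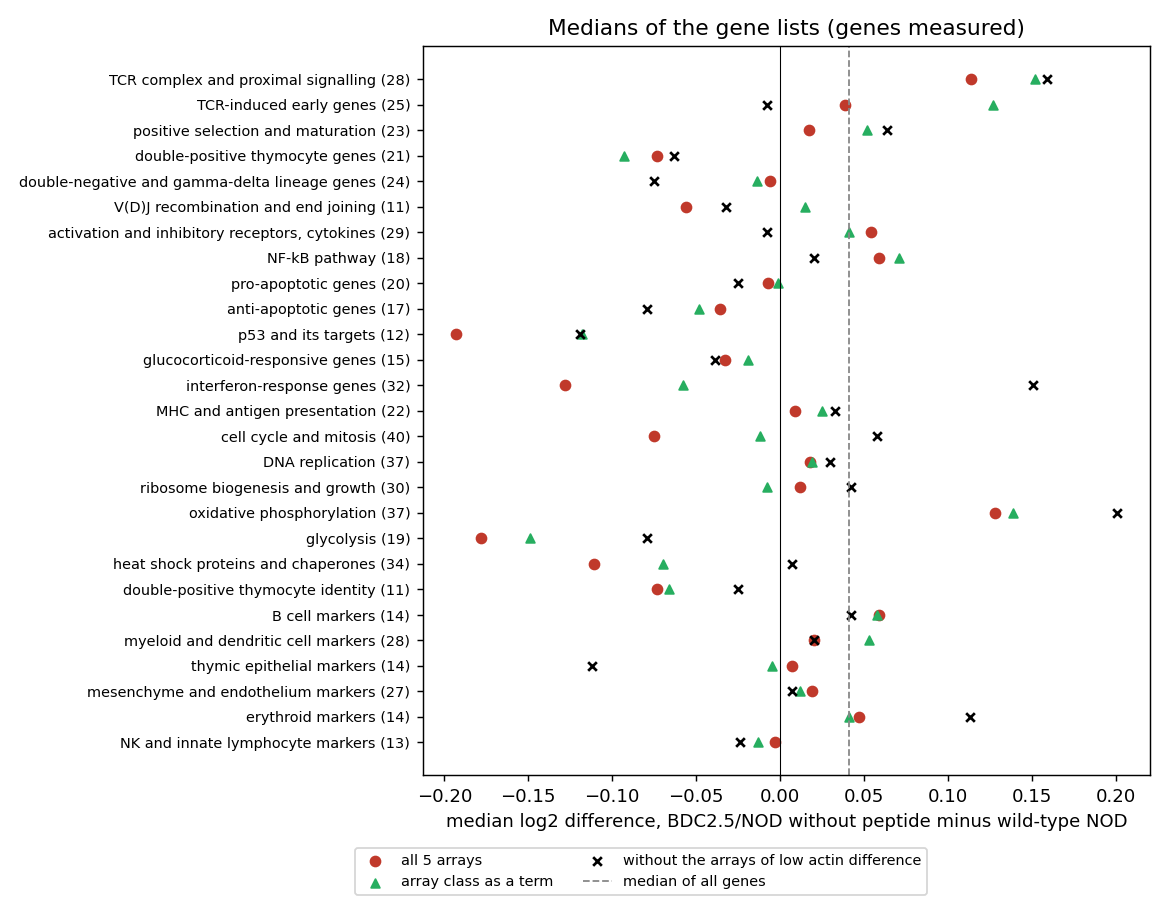
Median log2 difference (BDC2.5/NOD minus wild-type NOD) of each gene list, for all arrays, with array class as a term and without the 6 arrays of low β-actin difference. All medians of the full data lie between -0.19 and 0.13, and those of interferon-response, cell cycle and some other lists change sign without the 6 arrays.

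Markers of other cell types had summed intensities that overlapped between the groups. Without detection values, these sums do not show that such cells were present. Summed B cell markers lay at 1576 to 2503 in BDC2.5/NOD cells and 1448 to 2380 in wild-type NOD cells, and 13 of 14 were higher by small amounts (median 0.06). Most of that sum was Ighm, whose probe set averaged 1358 in BDC2.5/NOD cells and 1120 in wild-type NOD cells, while the B cell genes Pax5, Ebf1 and Cd79a averaged 74.1, 12.1 and 128 in BDC2.5/NOD cells and 71.7, 11.9 and 113 in wild-type NOD cells. Summed thymic epithelial markers lay at 898 to 1407 in BDC2.5/NOD cells and 1303 to 1567 in wild-type NOD cells (8 of 14 higher). Myeloid and dendritic cell markers lay at 1904 to 2979 in BDC2.5/NOD cells and 2159 to 2876 in wild-type NOD cells (17 of 28 higher). A large part of the epithelial sum was Ctsl, which is also in the myeloid list. Ctsl averaged 554 in BDC2.5/NOD cells and 843 in wild-type NOD cells. Mesenchyme and endothelium markers summed to 1642 to 2177 in BDC2.5/NOD cells and 1604 to 1784 in wild-type NOD cells (16 of 27 higher), erythroid markers to 714 to 922 in BDC2.5/NOD cells and 727 to 770 in wild-type NOD cells (10 of 14), and NK and innate lymphocyte markers to 693 to 746 in BDC2.5/NOD cells and 602 to 739 in wild-type NOD cells (6 of 13). The part of these markers in the results was not tested.

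The sex-linked transcripts, looked at after their values were seen, differed between arrays. Xist, transcribed from the inactive X, had 391, 883 and 1815 in BDC2.5/NOD cells and 16.2 and 1028 in wild-type NOD cells (log2 2.73 ± 2.25, limma adjusted p = 0.999). The Y-linked gene Eif2s3y had 69.7, 84.0 and 23.4 in BDC2.5/NOD cells and 136 and 240 in wild-type NOD cells (log2 -1.81 ± 1.10, adjusted p = 0.999). NOD1 stood apart with an Xist signal far below the other 4 arrays, and in the fit without NOD1 Asf1b gave 1.65 and Trbv13-2 (101279_f_at) -2.41. The part of the sex-linked difference in the other results was not tested. RefSeq places Asf1b on chromosome 8 and Trbv13-2 and Trbv1 on chromosome 6.

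The same contrast on the B6g7 background compares other arrays than that in NOD, and showed which of the called differences recurred. Both contrasts came from the same fit and used the same variance estimate for each probe set, so their calls are not independent. On B6g7, limma called 10 probe sets (0.0805%), among them 6 of the 7 called in NOD, and all 7 had the same sign. Trbv13-2 gave -2.81 ± 0.27 and -1.21 ± 0.19, the dimmer Trbv1 probe set -1.80 ± 0.16, 101311_at -1.47 ± 0.14, 99798_at -0.87 ± 0.14 and Asf1b 2.14 ± 0.25. Asf1b had 1147, 1203 and 1242 in BDC2.5/B6g7 cells and 240 and 306 in wild-type B6g7 cells, which is close to its intensities in NOD. The brighter Trbv1 probe set was higher in BDC2.5 cells there too, at 0.30. The exception among the 7 was 96526_at at -0.25, and the difference of the differences (NOD minus B6g7) was -0.49 (limma adjusted p = 1).

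**Figure D5:**
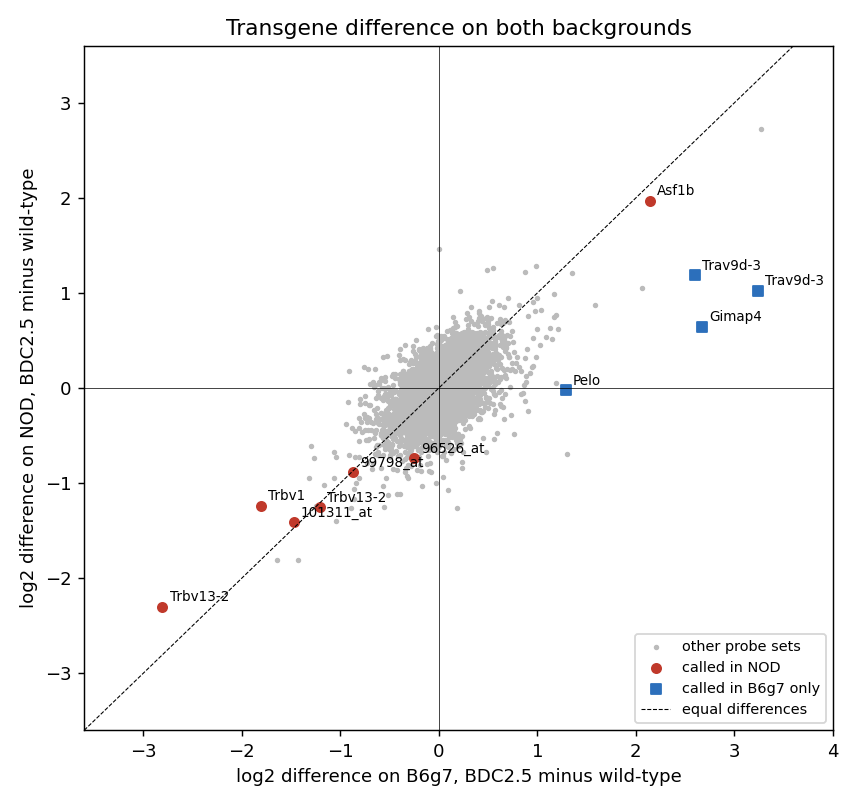
Log2 transgene difference in NOD (BDC2.5/NOD minus wild-type NOD) against that in B6g7 (BDC2.5/B6g7 minus wild-type B6g7), 1 point per probe set, with those called in either background marked. Asf1b and both Trbv13-2 probe sets lie near the line of equal differences, and the Trav9d-3 and Gimap4 probe sets lie further from 0 in B6g7.

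No probe set differed between the backgrounds in its transgene difference after adjustment: limma called 0 (0%) for the difference of the differences, and 104 (0.837%) had an unadjusted p under 0.05. The probe sets called in B6g7 and not in NOD were those of Trav9d-3, Gimap4 and Pelo. Trav9d-3 gave 1.19 in NOD and 2.60 in B6g7 by its brightest probe set (difference -1.41) and 1.03 in NOD and 3.24 in B6g7 by the second (difference -2.22). Gimap4 gave 0.65 in NOD and 2.68 in B6g7 (difference -2.03), and Pelo, a ribosome rescue factor gene named after its value was seen, gave -0.02 in NOD and 1.29 in B6g7. The adjusted p of these differences lay between 0.394 and 1. Pbx3 gave -1.26 in NOD and 0.19 in B6g7 and Ptcra -0.94 in NOD and -0.53 in B6g7, also without a call. In NOD, H2-T18, Dntt, Notch3, Notch1 and Dtx1 gave -1.40, -0.56, -0.81, -0.57 and -0.94. In B6g7 they gave -1.05, -0.81, -0.19, -0.10 and 0.05, and none was called on either background. Over all probe sets the differences in the backgrounds had a Pearson correlation of 0.528, across probe sets that are not independent. The arrays of low β-actin difference were N.pep0h3 and NOD2 in NOD and B.pep0h3 and B6g7.2 in B6g7. Both contrasts thus held the same uneven spread of array class, and its part in the correlation was not tested.

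With the 6 arrays of low β-actin difference left out, 2 BDC2.5/NOD arrays stood against NOD1 alone, whose spread was taken from the other groups. limma then called 0 probe sets (0%), 474 (3.82%) had an unadjusted p under 0.05, and all 7 probe sets called with all arrays kept their sign. Asf1b gave 2.26 and Trbv13-2 -1.95 and -1.22 in that fit, and Trbv1 (94726_at) gave -0.98.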

How the data were processed

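RNA of 16 samples had been read on 1-colour Affymetrix arrays. The table deposited by the authors gives a linear intensity for each probe set on each array (7.77 to 14085), with no detection values; background correction, scaling and probe summary are not given in the sources used here. Array number limits the precision. Intensities were taken to log2 with no pseudocount, and the deposited scale was kept. Of 12488 probe sets, 66 controls were left out. Of the 12422 tested, 10833 named 1 gene, 396 several and 1193 none in the platform annotation; 10817 matched the RefSeq gene table (GRCm38.p6). The 1-gene probe sets named 8251 genes.

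Differences were tested, two-sided, by limma 3.58.1 under R 4.3.3, with moderated variances that follow an intensity trend, on all 16 arrays with 1 mean per group in 6 groups (10 residual and 3.6 prior degrees of freedom). Benjamini-Hochberg adjustment ran over all tested probe sets, and a call is an adjusted p under 0.05. Fold values are 2 to the power of the log2 difference, and ± gives the standard error of the fit. The fit was tested on simulated data with known changes. In each group the array with the lowest β-actin 3′ minus 5′ log2 signal formed the array class. Lists used each gene's brightest probe set over all arrays.

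Named were the called 1-gene probe sets, then, up to 15 per direction, brightest probe sets with the smallest p, no overlap and a brighter group of log2 6 or more; up to 4 members per list by p; all TCR segment probe sets; fixed genes; and, between backgrounds, 6 per direction. Not every gene that the rule allows is printed. The text says where other probe sets were chosen from their values. The comparison, gene lists and tests were chosen with earlier results of these data known. Alternatives were other normalizations, a floor of 32, a pseudocount of 16, a filter on dim probe sets, other variance models, array weights, a replicate block, the array class and leaving out arrays. Promoter sequences came from RefSeq (GRCm38.p6).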

Additional observations from a re-analysis of the deposited data

How the results depend on the processing

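Depending on the setting, the count of calls differed from 7 (1 higher, 6 lower) mainly where fewer arrays informed the spread. With only the 5 arrays of the comparison, limma called 0 higher and 0 lower (96 unadjusted), and without the 6 arrays of low β-actin difference 0 and 0. Leaving out 1 array at a time gave 0 to 1 higher (0 without NOD1, 551 unadjusted) and 2 to 4 lower. With array class as a term, 2 were higher. All other settings gave 1 higher and 4 to 6 lower, and the called probe sets kept their sign in every setting that tested them. With a floor of 32, 6 of the 7 probe sets called were those of the main fit. The calls without NOD2 were also not all among those of the main fit. Array weights ended the calls of 99798_at and of the dimmer Trbv13-2 probe set, and a fit without the intensity trend ended that of the dimmer Trbv13-2 probe set (adjusted p = 0.0554). Whether replicate numbers pair the arrays is not known. Deviations of same-numbered arrays from their group means correlated at 0.678 for number 1 and -0.499 for number 2. The deviations of NOD1 and NOD2 are equal and opposite by construction, so these correlations cannot decide it. The replicate block left the same 7 calls (Asf1b 1.97) and had 1674 unadjusted. The difference between backgrounds had 1 call higher with a floor of 32 (101575_i_at, 0.17, adjusted p = 0.0135) and 0 otherwise.

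The values that changed sign belong to genes without a call. Without the 6 arrays, Odc1 gave 0.0203, Gadd45b -0.0051, Cd8a 0.0014, Cd3e -0.0250 and Il7r 0.0488. With the replicate block, Egr2 gave -0.13, Pdcd1 -0.0609 and Bcl2 0.0484. Median centring gave Cd3e -0.0039 and Cd8b1 -0.0098, array class as a term gave Il7r 0.0043 and Cd8b1 -0.0668, and array weights gave the brighter Col1a2 probe set -0.0854. Leaving out 1 array at a time, the log2 difference ranged from -0.27 to 5.72 for Xist, -1.33 to 0.11 for Pola1, -0.25 to 1.32 for Cd5, -0.31 to 1.42 for Zap70, -0.0831 to 0.52 for Nr4a1, -0.13 to 0.26 for Col1a2, -0.14 to 0.41 for Gadd45b, -0.56 to 0.25 for Cd8a, -0.18 to 0.0166 for Cd4, -0.16 to 0.56 for Egr2, -0.011 to 0.16 for Pdcd1, -0.17 to 0.10 for Bcl2, -0.0194 to 0.0737 for Cd3e, -0.27 to 0.16 for Il7r and -0.28 to 0.21 for Cd8b1. The cause of these changes was not tested, apart from the fewer samples in some fits. Dim probe sets have no detection value, so their background level is unknown.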

Other observations

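A single probe set of the collagen gene Col1a2 (101130_at), chosen after its value was seen, read 97.1, 212 and 102 in BDC2.5/NOD cells and 43.7 and 49.0 in wild-type NOD cells. The groups did not overlap, and the difference of 1.47 ± 0.34 had a limma adjusted p of 0.848. The gene's brighter probe set gave 0.09, and on the B6g7 background the dimmer one read 40.1, 48.4 and 36.5 in BDC2.5/B6g7 cells and 38.3 and 44.3 in wild-type B6g7 cells. Xist read 463, 1810 and 609 in BDC2.5/B6g7 cells and 15.4 and 446 in wild-type B6g7 cells, so that 1 wild-type array on each background had a low Xist signal.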
